A study of Mus musculus with 6 samples.

Results

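The transcripts described here are those of 6 genes: the ligands Fgf21 and Gdf15, the FGF21 co-receptor gene Klb, and the receptor genes Fgfr1, Fgfr2 and Fgfr3. They were chosen as a pathway and found by symbol, with earlier results of these data known, in a deposited table that holds 29072 genes with an identifier. Each was read from 1 transcript row, a RefSeq row with the highest mean over the libraries. The RNA came from brown fat taken between the shoulder blades (interscapular brown adipose tissue), a tissue that burns fuel to make heat. There were 3 libraries from mice with the genotype UCP1(-/-), called knockout here, and 3 from wildtype mice, and both groups carried the C57BL/6J strain background. The labels state no age, sex or housing temperature for either group, and none says whether each replicate was an animal of its own, so the spread that the p-values are set against may be technical.

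FGF21 and GDF15 are secreted proteins that cells make under mitochondrial and nutrient stress, and for that reason they are called mitokines. FGF21 acts on cells that carry both the membrane protein beta-klotho, the product of Klb, and an FGF receptor. Of the receptors, the one from Fgfr1 is the main partner of beta-klotho in fat, and the products of Fgfr2 and Fgfr3 can also pair with it in some splice forms. GDF15 is a distant member of the TGF-beta superfamily that signals through GFRAL, a receptor of the hindbrain, together with RET. In stressed cells the transcription factor ATF4 is known to raise both ligand genes, and PPAR-alpha is a further activator of Fgf21.

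The values are treated as RPKM, which divide reads by transcript length and by library depth. Levels can be compared between genes only roughly, since rows of a gene share reads and some widely used genes are listed at 0. The spacing of low values implied 15790000 to 18040000 reads per library. The targeted gene Ucp1 stood between 372 and 389 RPKM in knockout and between 1714 and 3151 RPKM in wildtype, with wildtype replicate 2 lowest of the wildtype group. The 15 skeletal muscle markers summed to between 1692 and 1942 RPKM in knockout and between 40.6 and 261 RPKM in wildtype, with wildtype replicate 3 lowest, and all 15 rose. Of 8 brown adipocyte markers Ucp1 fell and 7 did not pass. An unadjusted p under 0.05 was found for 4 of the 8, with Ucp1 and Prdm16 lower and Dio2 and Elovl3 higher in knockout, and limma-voom called 2. General adipocyte markers summed to 11424 to 12326 RPKM in the knockout group and to 10637 to 12031 RPKM in the wildtype group, and none of 7 passed in limma, reached an unadjusted p under 0.05 or passed in limma-voom. In 7 further lists (lymphocytes, neutrophils, endothelium, fibroblasts, mural, Schwann and epithelial cells) 0 of 42 genes passed in limma, 6 had an unadjusted p under 0.05, and limma-voom called 1. In a piece of tissue, a lower level through fewer cells of a type cannot be told apart from less RNA per cell.

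Among the ligands, both transcripts were scarce and both stood higher in every knockout library than in any wildtype library. Gdf15 passed the test and Fgf21 did not. Of the 6 genes 1 was called, against 3.65% of all 20527 genes tested, or 3.32% called higher in knockout and 0.326% called lower. Among the 2379 genes near the ligands' level, with a mean of 0.5 to 1.5 RPKM in the higher group, 5.55% were called and 5.21% were called higher. The test was limma on log2(RPKM + 1), with p-values adjusted over all genes tested and a threshold of 0.05. Fold changes on that scale understate the change of genes with low values.

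Gdf15 was held at 0.461, 0.585 and 1.13 RPKM in knockout replicates 1, 2 and 3. The values of wildtype replicates 1, 2 and 3 were 0.0565, 0 and 0.0567 RPKM. The lowest knockout library was thus well above the highest wildtype library, and knockout replicate 3 was the highest of all. The group means for knockout and wildtype were 0.724 ± 0.354 and 0.0377 ± 0.0327 RPKM (SD, n = 3 each). The log2 change was 0.71 (SE 0.13, 95% interval 0.40 to 1.02, limma adjusted p = 0.0346).

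Because a Gdf15 transcript row with a known length is in the table, its values could be turned back into reads. They came to 8, 10 and 22 reads in knockout replicates 1, 2 and 3, and to 1, 0 and 1 reads in wildtype replicates 1, 2 and 3, each whole within 0.1 reads. These are very few reads for a call, and the wildtype level rests on 2 reads in all. The ratio of summed reads, corrected for depth, was 19.6 with a 95% exact counting interval from 5.08 to 167. The 95% exact intervals of single libraries could overlap between groups: knockout replicate 1 with 8 reads allowed 3.45 to 15.8, and wildtype replicates 1 and 3 with 1 read each allowed up to 5.57. For the 0 of wildtype replicate 2 the upper limit is 3 reads, or 0.171 RPKM, as a one-sided bound, and 3.69 reads as the end of the two-sided interval. Such intervals and limits cover counting error only, since reads amplified by PCR without molecular identifiers are not independent molecules. Gdf15 has 5 transcript rows, which share reads, and the groups did not overlap in any of them.

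The Gdf15 call did not hold in every fit that left out a library. The log2 change kept its sign in all 6 of these fits, but without knockout replicate 2 the adjusted p was 0.0886, and without wildtype replicate 1, 2 or 3 it was 0.105, 0.102 and 0.1004 in turn. It was 0.0589 in limma without an intensity trend in the variance.

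Fgf21 stood at 0.659, 1.14 and 0.644 RPKM in knockout replicates 1, 2 and 3. The wildtype replicates 1, 2 and 3 held 0.323, 0.325 and 0.130 RPKM. Every knockout library was above every wildtype library, with knockout replicate 2 highest and wildtype replicate 3 lowest. The means for knockout and wildtype were 0.814 ± 0.281 and 0.259 ± 0.112 RPKM (SD, n = 3 each), a ratio of 3.14. The log2 change was 0.52 (SE 0.12, 95% interval 0.24 to 0.80, limma adjusted p = 0.0721), which misses the threshold. The adjusted p was 0.0425 when genes with means under 0.1 RPKM in both groups were left out, which lowers the number of genes tested.

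In reads, Fgf21 came to 10, 17 and 11 in knockout replicates 1, 2 and 3 and to 5, 5 and 2 in wildtype replicates 1, 2 and 3. The length for this step was that of the GENCODE transcript paired with the RefSeq row. The depth-corrected ratio of the sums, 38 against 12 reads, was 3.10 with a 95% exact counting interval from 1.59 to 6.51. Intervals of single libraries could overlap between groups: knockout replicate 1 with 10 reads allowed 4.80 to 18.4, and wildtype replicate 1 with 5 reads allowed 1.62 to 11.7. At this depth the difference in Fgf21 exceeded counting error for the group sums, and not for those 2 libraries alone.

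**Figure D1:**
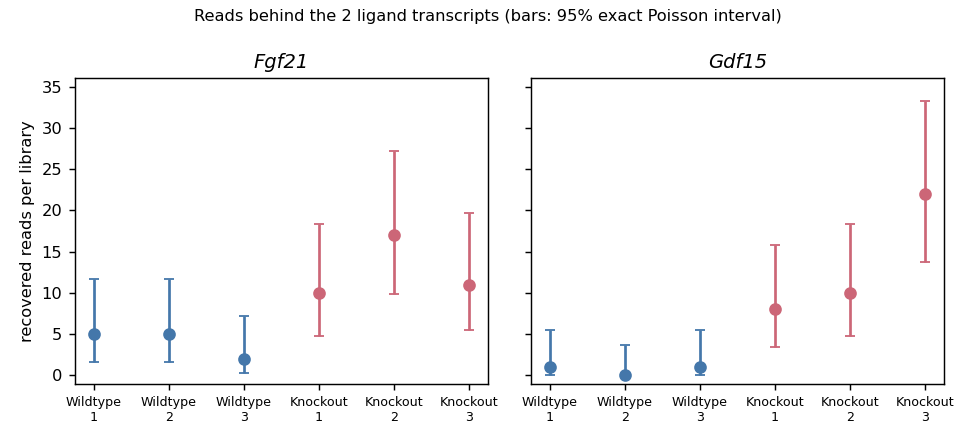
Reads recovered for Fgf21 and Gdf15 (vertical axis, reads per library) in the 3 wildtype (blue) and 3 knockout (red) libraries, with bars for the 95% exact Poisson interval. Wildtype libraries hold 2 to 5 reads of Fgf21 and 0 to 1 of Gdf15, knockout libraries 10 to 17 and 8 to 22.

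Markers of other cell types also differed between the groups. Fgf21 is also made by muscle under stress. In the wildtype group, Fgf21 was lowest in replicate 3, where the muscle markers summed to 40.6 RPKM, against 227 and 261 RPKM in replicates 1 and 2. In the knockout group, the muscle sums were 1942, 1911 and 1692 RPKM for replicates 1, 2 and 3, while Fgf21 was highest in replicate 2 and Gdf15 in replicate 3. Wildtype replicate 2, with the largest muscle sum of its group, had 0 reads of Gdf15. Macrophages are a known source of Gdf15. Their 9 measured markers summed to 63.9 to 84.7 RPKM in knockout and to 38.9 to 60.3 RPKM in wildtype, and none was at 0. Their median log2 change was 0.41, 7 of 9 had an unadjusted p under 0.05, 1 rose in limma and limma-voom called 2. The marker that rose was Mpeg1, at 3.44 ± 0.564 RPKM for knockout against 1.41 ± 0.353 RPKM for wildtype (SD, n = 3 each). The part of muscle or macrophage RNA in the ligand values was not tested. Gdf15 and Fgfr1 lie on chromosome 8, as Ucp1 does, but neither within 10 Mb of it in the RefSeq annotation of GRCm38.p6. An effect on either gene of DNA carried along with the Ucp1 mutation was not tested.

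The promoters of both ligand genes are shown, as the 250 bases before each RefSeq gene start in GRCm38.p6 (RefSeq). Searched on both strands, and without overlap between motifs in these windows, were TGATGNAA, a form of the element bound by ATF4 with C/EBP partners, the cAMP response element core TGACGT, and the direct repeat bound by PPAR and RXR, searched as 2 copies of AGGNCA with 1 base between them. Capitals mark the matches. The Fgf21 window lies at chr7:45615491-45615740 on the minus strand, and the Gdf15 window at chr8:70632457-70632706 on the minus strand, both written 5′ to 3′ towards the gene.
Fgf21: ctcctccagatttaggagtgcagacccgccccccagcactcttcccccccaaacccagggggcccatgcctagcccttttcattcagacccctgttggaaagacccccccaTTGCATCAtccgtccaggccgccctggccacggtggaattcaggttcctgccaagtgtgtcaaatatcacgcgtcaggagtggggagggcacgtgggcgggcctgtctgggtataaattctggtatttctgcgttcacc
Gdf15: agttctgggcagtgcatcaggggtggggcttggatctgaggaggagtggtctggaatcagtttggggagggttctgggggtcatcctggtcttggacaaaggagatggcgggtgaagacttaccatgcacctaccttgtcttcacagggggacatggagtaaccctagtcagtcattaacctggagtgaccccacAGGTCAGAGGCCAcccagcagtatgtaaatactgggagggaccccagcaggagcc
The Fgf21 window holds TTGCATCA, the reverse strand form of TGATGNAA, at 139 to 132 bases before the start. Among 32851 promoter windows of 250 bases, 3.45% hold this motif. The Gdf15 window holds AGGTCAGAGGCCA at 55 to 43 bases before the start, which matches the PPAR repeat, and 0.338% of all windows do. TGACGT, found in 6.47% of windows, was in neither. The windows of Klb, Fgfr2 and Fgfr3 held no match to any of the 3 motifs, nor did a second window listed for Gdf15. Fgfr1 was not among the windows used. A match is a run of letters and not evidence of binding in these samples.

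The co-receptor and the main receptor were the abundant part of this system, and neither passed the test. Klb was held at 14.9, 20.4 and 17.9 RPKM in knockout replicates 1, 2 and 3, and at 16.8, 13.5 and 14.1 RPKM in wildtype replicates 1, 2 and 3. The groups overlapped, since wildtype replicate 1 was above knockout replicate 1. The means were 17.8 ± 2.72 and 14.8 ± 1.78 RPKM (SD, n = 3 each), with a log2 difference of 0.24 (95% interval -0.06 to 0.54, limma adjusted p = 0.362).

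Fgfr1 stood at 12.1, 13.98 and 13.98 RPKM in knockout replicates 1, 2 and 3 and at 10.3, 10.1 and 12.9 RPKM in wildtype replicates 1, 2 and 3. Wildtype replicate 3 lay above knockout replicate 1, so the groups overlapped here too. The log2 difference was 0.25 (95% interval 0.00 to 0.50, limma adjusted p = 0.266), for means of 13.4 ± 1.06 and 11.1 ± 1.53 RPKM (SD, n = 3 each). The difference ranged from 0.17 to 0.35 across the settings tried. The ratio of Klb to Fgfr1 within a library, which no scaling of libraries can move, was 1.32 ± 0.119 in knockout and 1.35 ± 0.269 in wildtype (SD, n = 3 each; two-sided exact permutation p = 0.9).

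The minor receptors differed in opposite directions without passing the test. Fgfr2, the receptor of several paracrine FGFs, was at 0.836, 1.16 and 1.11 RPKM in knockout replicates 1, 2 and 3. In wildtype replicates 1, 2 and 3 it was at 0.580, 0.622 and 0.621 RPKM, so the groups did not overlap and the wildtype libraries lay close together. The means for knockout and wildtype were 1.03 ± 0.175 and 0.607 ± 0.0238 RPKM (SD, n = 3 each), with a log2 difference of 0.34 (SE 0.08, 95% interval 0.14 to 0.53, limma adjusted p = 0.0854). Reads of Fgfr2 were recovered from another row, the Ensembl row of known length with the highest mean, and there the groups overlapped. They came to 45, 70 and 86 reads in knockout replicates 1, 2 and 3 and 54, 42 and 32 reads in wildtype replicates 1, 2 and 3. These are rounded, since not all were whole within 0.1 reads.

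Fgfr3, a further receptor of the family, was at 1.01, 1.25 and 0.826 RPKM in knockout replicates 1, 2 and 3 and at 1.75, 1.49 and 1.51 RPKM in wildtype replicates 1, 2 and 3. Every wildtype library was above every knockout library. The means for knockout and wildtype were 1.03 ± 0.212 and 1.58 ± 0.143 RPKM (SD, n = 3 each), with a log2 difference of -0.35 (SE 0.11, 95% interval -0.60 to -0.10, limma adjusted p = 0.135). From an Ensembl row of the gene, Fgfr3 came to about 45, 47 and 45 reads in the knockout replicates and about 70, 56 and 71 in the wildtype replicates, also rounded from values that were mostly not whole within 0.1 reads. It was the only gene of the 6 with the lower mean in knockout.

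Of the 6 genes, 4 had groups that did not overlap, against 23.7% of all genes. Of these, 3 were higher in knockout, as were 19.7% of all genes, and 1 was lower, as were 4.08%. With 3 libraries against 3, the smallest two-sided exact permutation p is 0.1, and Fgf21, Gdf15, Fgfr2 and Fgfr3 each reached it.

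**Figure D2:**
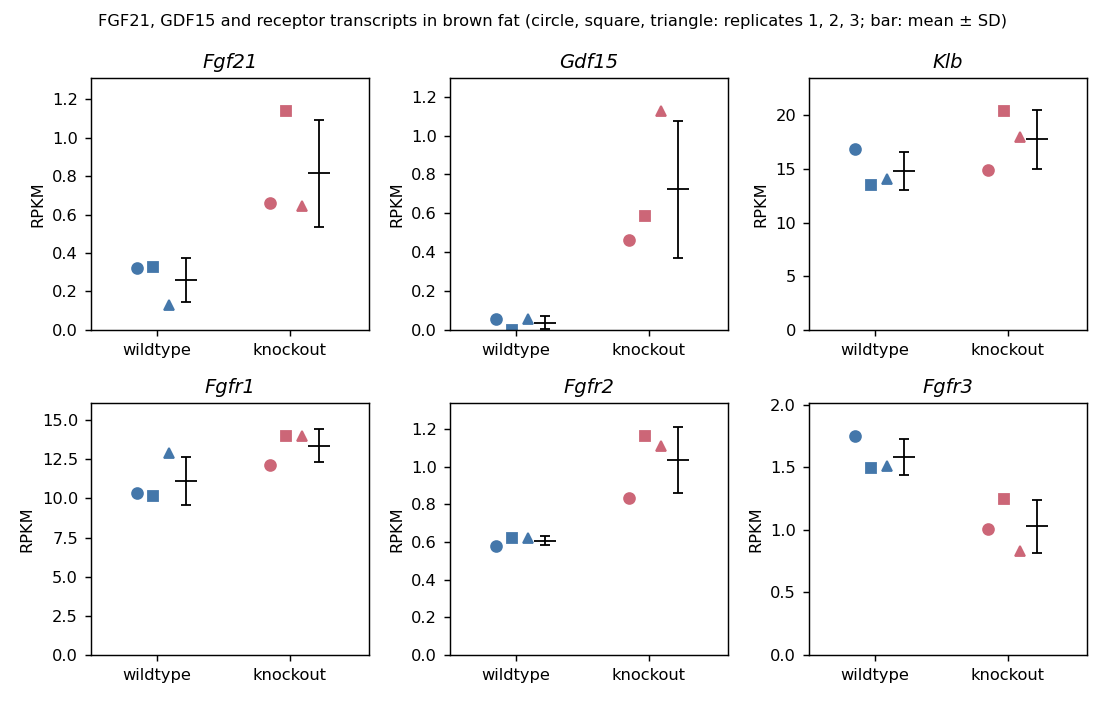
RPKM (vertical axes, each from 0) of the 6 genes in each wildtype (blue) and knockout (red) library, with markers for replicates 1 to 3 and bars for mean ± SD over 3 libraries. Fgf21, Gdf15 and Fgfr2 are higher in every knockout library, Fgfr3 is lower in every one, and Klb and Fgfr1 overlap.

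The order of levels differed between the groups in its lower ranks. In both, Klb came before Fgfr1 and the ranges of the pair did not overlap. In wildtype brown fat Fgfr3 followed at 1.58 RPKM, then Fgfr2 at 0.607, Fgf21 at 0.259 and Gdf15 at 0.0377 RPKM, and no neighbours overlapped. In knockout brown fat Fgfr2 at 1.03, Fgfr3 at 1.03, Fgf21 at 0.814 and Gdf15 at 0.724 RPKM followed Fgfr1, and each of these 4 overlapped the next. Over all 6 libraries Klb had a higher mean than 86.8% of genes with a value above 0, Fgfr1 than 82.7%, and Gdf15 than 35.8%.

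The balance of receptor transcripts was measured within each library, where the scaling cancels. Fgfr1 made up 86.3 ± 1.51% of the RPKM of Fgfr1 to Fgfr4 in knockout and 83.3 ± 2.19% in wildtype (SD, n = 3 each), with overlap between the groups. The share of Fgfr3 was 7.19, 7.56 and 5.18% in knockout replicates 1, 2 and 3 and 13.8, 12.2 and 10.02% in wildtype replicates 1, 2 and 3. The share of Fgfr2 was 5.96, 7.03 and 6.95% in knockout replicates and 4.57, 5.06 and 4.13% in wildtype replicates. Neither share overlapped between groups for the rows used, and shares from other transcript rows were not computed. Fgfr1 exceeded Fgfr3 by a ratio of 13.4 ± 3.09 in knockout and 7.09 ± 1.34 in wildtype (SD, n = 3 each). Each of these non-overlapping measures has a two-sided exact permutation p = 0.1, the smallest possible, and an adjusted p of 0.125 over the 10 ratios and shares computed. Fgfr4, whose product pairs with beta-klotho in liver, was very low, at 0.0397, 0.121 and 0.0353 RPKM in the knockout replicates and at 0.0195, 0.0196 and 0.0196 RPKM in the wildtype replicates.

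**Figure D3:**
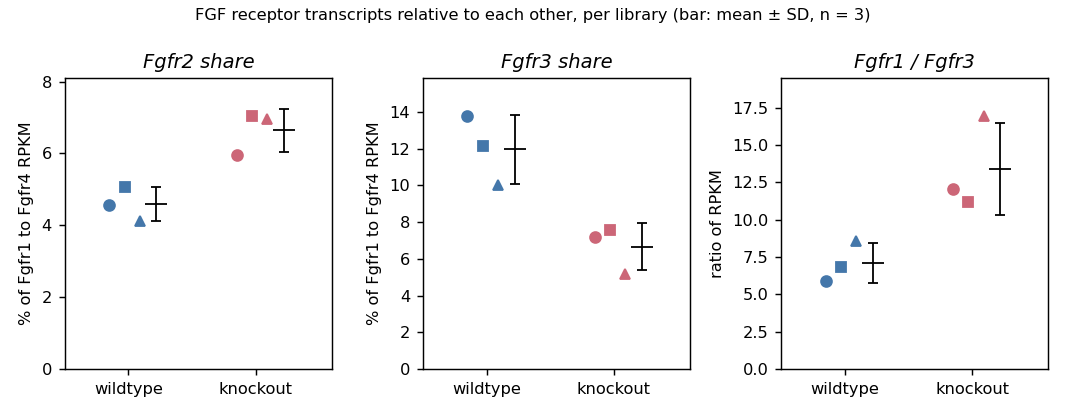
Shares of Fgfr2 and Fgfr3 in the summed RPKM of Fgfr1 to Fgfr4 (per cent), and the ratio of Fgfr1 to Fgfr3 RPKM, per library, with bars for mean ± SD (n = 3). With the row used for each gene, knockout libraries (red) lie above wildtype libraries (blue) for the Fgfr2 share and the Fgfr1 to Fgfr3 ratio. They lie below them for the Fgfr3 share.

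The table lists many overlapping transcripts of the receptor genes, which share reads and are not independent. All 25 rows of Fgfr2 had the higher mean in knockout, by 1.10-fold to 2.18-fold, and in 11 of them the groups did not overlap. All 14 rows of Fgfr3 had the lower mean in knockout, with ratios from 0.581 to 0.898, and in 11 the groups did not overlap. For Fgfr1 all 19 rows were higher in knockout by mean, from 1.14-fold to 1.36-fold, but the groups did not overlap in 1 row only. The sign of each receptor's difference in means was thus the same for every row, while the overlap of the groups varied with the row. Rows of different splice forms share reads, and the forms were not separated here.

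**Figure D4:**
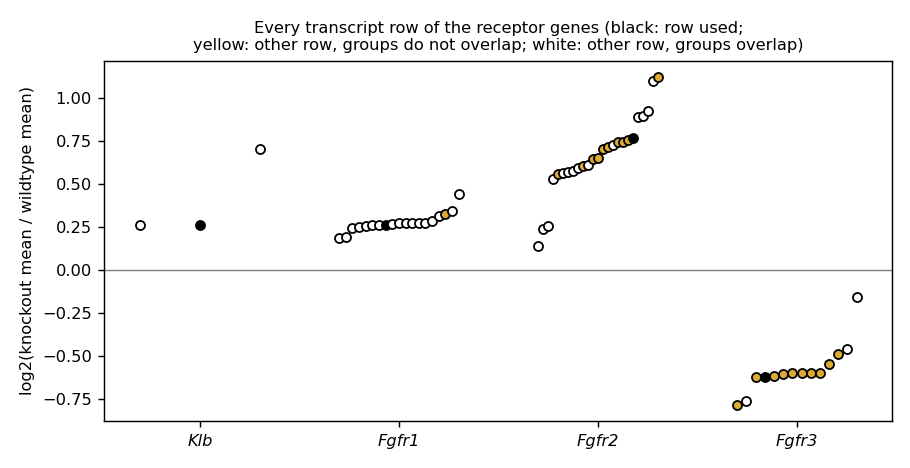
Log2 ratio of knockout to wildtype mean RPKM for every transcript row of Klb, Fgfr1, Fgfr2 and Fgfr3, sorted within each gene, with the row used in black and other rows whose groups do not overlap in yellow. All Fgfr2 rows lie above 0 and all Fgfr3 rows below it.

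Other receptors and ligands of these systems were measured from fixed lists. Of 7 relatives of the endocrine FGF and GDF15 receptors, Fgf15, Fgf23 and Gfral were listed at 0 in every library, and 1 of the 4 tested rose. Gapdh and Ppia, which every cell uses, are at 0 here too, so a 0 is not evidence that a gene is off. The gene that rose was Fgfrl1, an FGF-binding receptor without a kinase domain, at 31.9, 32.4 and 31.2 RPKM in knockout replicates 1, 2 and 3 and 19.5, 24.6 and 21.8 RPKM in wildtype replicates 1, 2 and 3 (log2 change 0.52, limma adjusted p = 0.0221). With median-of-ratios scaling Fgfrl1 did not pass (adjusted p = 0.0594), nor in 5 of the 6 fits that left out a library, all but that without wildtype replicate 2 (adjusted p = 0.0501 to 0.0909). Ret, the signalling partner of GFRAL, did not pass, with 0.381 ± 0.0158 RPKM for knockout and 0.321 ± 0.0107 RPKM for wildtype (SD, n = 3 each). None of 11 tested paracrine FGF genes passed in limma, 2 of them had an unadjusted p under 0.05, and limma-voom on recovered reads called 1 of 7. The smallest p belonged to Fgf1, a ligand of every FGF receptor, at 7.67, 6.69 and 4.14 RPKM in knockout replicates 1, 2 and 3 and 2.36, 3.31 and 2.47 RPKM in wildtype replicates 1, 2 and 3 (log2 difference 0.92, limma adjusted p = 0.0635). Its groups did not overlap. Fgf1 passed in 6 of 18 alternatives, among them a floor of 1 RPKM (adjusted p = 0.0223), limma-voom (0.0136) and the fit without knockout replicate 3 (0.0294).

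Downstream of the receptors, 1 gene passed among the transducers and 2 among the feedback and target genes. Of 24 tested adaptors, kinases and other transducers 1 rose, Gab2, a docking protein, at 4.04 ± 0.09 RPKM against 2.05 ± 0.374 RPKM in wildtype (SD, n = 3 each). Its log2 change was 0.73 (limma adjusted p = 0.0158), and the other 23 genes did not pass, while 5 of the 24 had an unadjusted p under 0.05. Gab2 did not pass without knockout replicate 1, 2 or 3 or wildtype replicate 1 (adjusted p = 0.0634 to 0.0743). The list's median log2 change was 0.06, beside 0.04 over all genes tested, and -0.02 with median-of-ratios scaling. Of 19 feedback and target genes of FGF and ERK signalling 2 rose and none fell, with a list median of 0.20. Of these 19 genes 9 had an unadjusted p under 0.05, and limma-voom called 4 of 18. Dusp4, a phosphatase that switches off ERK, was at 32.9, 43.3 and 29.8 RPKM in knockout replicates 1, 2 and 3 and at 21.2, 15.8 and 20.1 RPKM in wildtype replicates 1, 2 and 3 (log2 change 0.85, limma adjusted p = 0.0363). Spred2, an inhibitor of the same pathway, went from 6.02 ± 0.760 to 8.94 ± 0.741 RPKM (log2 change 0.51, limma adjusted p = 0.0482). The call on Dusp4 was lost without each of the 6 libraries in turn, with adjusted p from 0.0681 to 0.102, as was that on Spred2, with 0.0775 to 0.152. Spred2 also missed the threshold after median-of-ratios scaling (adjusted p = 0.0822). Spry4, a further inhibitor, did not pass, with 10.8 ± 1.01 RPKM in knockout libraries and 5.17 ± 2.55 RPKM in wildtype libraries (SD, n = 3 each) and no overlap. Among 6 genes reported to answer FGF21 in fat, the 1 that passed was Ucp1, the targeted gene, which fell. Of the 6, 3 had an unadjusted p under 0.05, and the list median was 0.14 (0.05 with median-of-ratios scaling). Slc2a1 averaged 3.36 ± 0.329 RPKM over the knockout libraries and 2.14 ± 0.188 RPKM over the wildtype ones (SD, n = 3 each), without overlap. Slc2a1 missed the threshold (log2 difference 0.47, limma adjusted p = 0.0529). Dio2 was also higher without overlap (0.32, limma adjusted p = 0.177). For the rest of the list the groups overlapped.

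Upstream of the ligands, few genes passed. Among the 9 pathway lists the largest share of calls was in the other ATF4 target genes, a list written with earlier results known. Of 22 regulators of Fgf21 and Gdf15 transcription 1 rose, 8 had an unadjusted p under 0.05, and limma-voom called 4 of 21. The one that rose was Atf5, a relative of ATF4, at 166, 245 and 222 RPKM in knockout replicates 1, 2 and 3 and 80.4, 85.1 and 94.7 RPKM in wildtype replicates 1, 2 and 3 (log2 change 1.26, limma adjusted p = 0.0067). Atf4 itself had means of 114 ± 5.89 RPKM (knockout) and 81.0 ± 12.9 RPKM (wildtype), and Ppara 65.4 ± 10.1 and 43.5 ± 4.85 RPKM (SD, n = 3 each). Neither passed, although the groups did not overlap for either. Among 8 kinases, phosphatase subunits and partners of eIF2alpha, the factor whose phosphorylation raises ATF4, 1 rose and 7 did not pass. It was Ppp1r15a, a phosphatase subunit, with 13.7 ± 0.129 RPKM for knockout against 9.72 ± 0.821 RPKM for wildtype (SD, n = 3 each; limma adjusted p = 0.0192), and it missed the threshold without knockout replicate 1, 2 or 3 or wildtype replicate 2 (adjusted p = 0.0569 to 0.0827).

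Of 17 other ATF4 target genes 10 rose, none fell and 7 did not pass, with a list median of 0.57 on the log2 scale. After median-of-ratios scaling 9 rose, and limma-voom called 14 of 17. This list was written with earlier results on these samples known, so its direction is not independent evidence. Mthfd2, a mitochondrial folate enzyme, was at 9.23, 13.3 and 7.39 RPKM in knockout replicates 1, 2 and 3 and at 0.946, 1.55 and 0.773 RPKM in wildtype replicates 1, 2 and 3 (log2 change 2.38, limma adjusted p = 0.00368). Asns, which makes asparagine, rose from 28.8 ± 1.51 to 46.2 ± 2.91 RPKM, and Pck2, a mitochondrial carboxykinase, from 3.67 ± 0.489 to 8.70 ± 1.09 RPKM (SD, n = 3 each). Over all the pathway lists together, 18 of 123 genes passed, beside 3.65% of all 20527 genes tested. Of the 18, 8 were among the 106 genes outside the ATF4 target list, and these include Ucp1, the targeted gene. With a floor of 1 RPKM, 27 of 92 pathway genes passed, ATF4 targets included, beside 887 of all 11562 genes.

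Among 14 ligands of the TGF-beta superfamily, to which GDF15 belongs, Mstn rose and 13 did not pass. Of the 14, 5 had an unadjusted p under 0.05, and limma-voom called 2 of 13. Mstn encodes myostatin, a product of skeletal muscle, and was at 0.466, 0.402 and 0.434 RPKM in knockout replicates 1, 2 and 3 and at 0, 0.138 and 0.0229 RPKM in wildtype replicates 1, 2 and 3 (log2 change 0.45, limma adjusted p = 0.00782), in the same libraries where the muscle markers were high. The part of muscle RNA in this value was not tested.

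**Figure D5:**
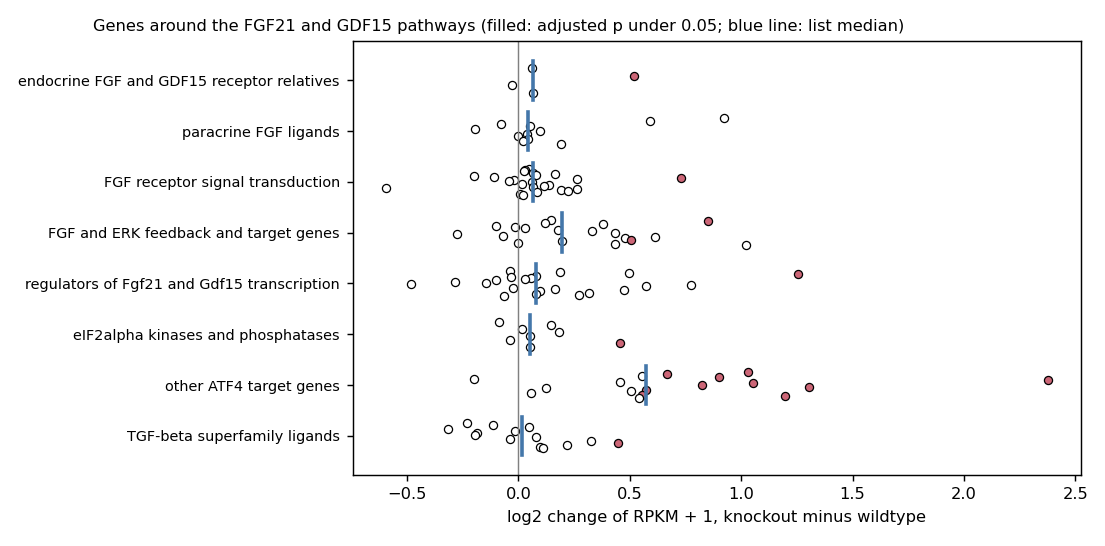
Log2 change of RPKM + 1, knockout minus wildtype (horizontal axis), of the tested genes in 8 lists (the genes that answer FGF21 are not drawn), with called genes filled and the list median as a blue line. Filled points are few except among the other ATF4 target genes, where 10 of 17 are filled.

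The genes whose pattern over the 6 libraries was most like that of each member were found by Pearson's r of log2(RPKM + 1) among 10293 genes that reached 1 RPKM as the mean of a group. For Fgf21 they were Clec10a, Mrpl1 and Dhx32 (r of 0.997, 0.996 and 0.993), and for Gdf15 they were Sema6a, Plekha1 and Tmem82 (0.998, 0.997 and 0.995). Klb was most like Vta1, Dapk3 and Rangrf (0.996, 0.993 and 0.991), and Fgfr1 most like Noa1, Ilvbl and Elf1 (0.991, 0.990 and 0.990). Fgfr2 was followed by Clmp, Itm2c and Rasa3 (0.995, 0.991 and 0.990), and Fgfr3 by Brf2, Adra1a and Bbip1 (0.990, 0.980 and 0.978). Such values are common with 6 points that fall into 2 genotypes: 124 genes exceeded an r of 0.95 with Fgf21, 106 with Gdf15, 121 with Fgfr2, 67 with Fgfr1, 27 with Klb and 16 with Fgfr3.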

How the data were processed

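RNA of interscapular brown fat was sequenced from TruSeq RNA Sample Prep kit v2 libraries, per the labels' protocols, and CASAVA and bcl2fastq are named, per the submitters' processing notes. Not given in the sources used here are the aligner, genome build, annotation and use of strand, so reads of overlapping genes cannot be separated. The deposited table, made by the authors, gives values for 168326 transcript rows with decimal commas, treated here as RPKM although no header names the unit. Low values multiplied by GENCODE M21 transcript lengths fell on whole reads, within 0.1, for 95.9% to 96.4% of low products, which gave the depth of each library. The 23170 rows with no gene identifier were left out, and 1 row per gene was kept (RefSeq rows, then the highest mean).

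All 20527 genes above 0 in a library were fitted with limma 3.58.1 in R 4.3.3 on log2(RPKM + 1), with an intensity trend and genotype as the only factor, and p-values are two-sided with Benjamini-Hochberg adjustment. The fit was tested on simulated data for genes with a mean above 1 RPKM. That test did not cover the levels of Fgf21, Gdf15 and Fgfr2, whose means lie below it. For single values, an exact permutation test over the 6 libraries was used. Alternatives changed the scaling, floor, pseudocount, rows, variance model, replicates and block, and limma-voom was run on recovered reads for genes with at least 10 reads in all. No library duplicated another.

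The members and gene lists were chosen with earlier results of these data known. The rule for named genes takes the 6 members, Ucp1, up to 3 called genes per pathway list with the smallest adjusted p or else the gene with the smallest p, and the 3 genes most like each member, leaving out predicted genes and pseudogenes. Atf4, Ppara, Ret, Fgfr4, Spry4, Slc2a1, Prdm16, Dio2, Elovl3 and the genes listed at 0 were named after their values were seen. So were Egr1, Nr4a1, Ier2, Junb and Bmp8b.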

Additional observations from a re-analysis of the deposited data

How the results depend on the processing

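No member changed direction under any alternative. Klb, Fgfr1, Fgfr2 and Fgfr3 stayed short of the threshold in all 18. Fgf21 passed in 1 of 17 (a floor of 0.1 RPKM, log2 change 0.52, adjusted p = 0.0425), and its change without each library in turn was 0.40 to 0.58. Gdf15 kept its call in 11 of 17. It lost it without an intensity trend (0.71, adjusted p = 0.0589) and in 4 of the 6 fits that leave out a library (0.69 to 0.76). Over all 6 of those fits the change was 0.55 to 0.82. A floor of 1 RPKM removed both ligands, which then have no value. With a pseudocount of 0.1 RPKM the log2 change was 2.53 for Gdf15 and 1.36 for Fgf21, and limma-voom on recovered reads gave 3.59 and 1.55. The number of called genes, 749, was 337 to 525 without each library in turn, with more than a 1.5-fold drop without knockout replicate 1 (376), 2 (337) or 3 (372) or wildtype replicate 1 (395) or 3 (472). Of the pathway genes 18 passed, 29 with limma-voom, and 8 to 14 without each library in turn (10 without knockout replicate 1, 8 without knockout replicate 2). With the replicate number as a block, 292 genes and 9 pathway genes passed, and Gdf15 (0.71, adjusted p = 0.0735) did not. The labels do not say whether the numbers pair the samples. Deviations of same-numbered libraries correlated at 0.0944, 0.0409 and -0.0166, and those of other pairs at -0.141 to 0.0707. With 3 libraries per group these values cannot settle it. Depth limits the ligands, since the wildtype libraries hold 12 reads of Fgf21 and 2 of Gdf15 in all.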

Other observations

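Egr1 and Nr4a1, immediate early genes picked after their values were seen, had a wide spread within the wildtype group, wider relative to their level than that of Ier2 (12.7, 7.20 and 8.65 RPKM) or Junb (9.55, 7.20 and 4.18 RPKM) in wildtype libraries 1, 2 and 3. Egr1, an early growth response factor, had 10.1, 1.76 and 1.20 RPKM in wildtype libraries 1, 2 and 3, against 2.78, 3.03 and 2.58 RPKM in knockout libraries 1, 2 and 3. Nr4a1, an orphan nuclear receptor, had values of 83.99, 20.1 and 19.6 RPKM in wildtype libraries 1, 2 and 3 and of 68.7, 42.0 and 60.8 RPKM in the knockout replicates. For both genes wildtype replicate 1 was the highest of the 6 libraries and the knockout libraries lay between the wildtype extremes. Bmp8b, a TGF-beta superfamily ligand of brown fat, was at 1.30 RPKM in wildtype replicate 2 and at 0.0833 to 0.323 RPKM in the other 5 libraries.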
